A study of Homo sapiens with 4 samples.

Results

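Retinoic acid receptors and the proteins that move, store and break down retinoids were described with 9 genes, RARA, RARB, RARG, RXRA, CRABP1, CRABP2, STRA6, DHRS3 and CYP26B1. The members were all probe sets that the array annotation gives to 1 of these genes alone. There were 22 such probe sets for 8 of the 9 genes, of 41091 single-gene probe sets for 19775 genes in all. No probe set was annotated to CRABP1, so no value is given for it. Of the 8 genes, 7 reached a log2 level of 6, under which a value is read as background, in 1 or more arrays, and STRA6 did not.

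The samples came from SUM159, a human breast cancer cell line with mesenchymal features, carrying the inducible construct pTRIPZ-SUM159-mir-100 for the microRNA miR-100. Cells were sorted by aldehyde dehydrogenase (ALDH) status, a property used to enrich stem-like cells, and both fractions were held in suspension with or without DOX. This gave 4 groups, each fraction without DOX (control) and with it, at 1 array a group, and all of them carried the construct. The titles give Doxycycline(DOX) for 10 h, whereas the descriptions give Doxorubicin for 13 h, and DOX is used here for the treated arrays. Nothing in the labels says that the arrays came from separate cultures or sorts, so the p-values cover only how these 4 arrays vary, and that variation may be technical.

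Retinol enters cells with the help of STRA6 and is oxidised to retinal, and ALDH1A enzymes, the enzymes linked to the ALDH sort, then oxidise retinal to retinoic acid. DHRS3 returns retinal to retinol, CRABP1 and CRABP2 bind retinoic acid in the cytosol, and CYP26 enzymes break it down. Retinoic acid acts through pairs of a RAR and an RXR on DNA elements built from repeats of a short core motif, and genes such as RARB and DHRS3 are known to respond to it. MiR-100 is the product the construct is meant to induce. Its own level was not analysed here. Its mature form (RefSeq, GRCh38.p14, chr11:122152275-122152296, minus strand) is shown with the seed, bases 2 to 8, in capitals.

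miR-100-5p: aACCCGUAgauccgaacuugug

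Promoter windows from 250 bases before to 50 after each start were matched by symbol in RefSeq (GRCh38.p14) for all 9 genes, 21 windows in all. They were searched on both strands for a direct repeat of AGGTCA or AGTTCA or GGGTCA or GGTTCA, in any pairing, with 1, 2 or 5 bases between. RARB had the only match among the 21 windows. The repeat, with 5 bases between its parts, spans the bases from 53 to 37 before 1 of the 4 RARB starts and is of the kind known as the retinoic acid response element of RARB. This spacing was found in 0.0883% of 35116 windows of the same length, the spacing of 1 in 0.131% and the spacing of 2 in 0.0399%. The single core motif AGGTCA stood in 5 of the 21 windows and in 13.8% of all windows. It lay in 1 window of RARA, 1 of RARB other than that with the repeat, 2 of STRA6 and 1 of DHRS3, and no match overlapped the repeat. The 250 bases before that RARB start (chr3:25428013-25428262, plus strand) are printed because they hold the repeat, in capitals. The 250 bases before the outermost DHRS3 start (chr1:12618211-12618460, minus strand) are printed because DHRS3 differed the most between the fractions, and they hold none of these motifs. A match or its absence describes only the letters in the window.

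RARB: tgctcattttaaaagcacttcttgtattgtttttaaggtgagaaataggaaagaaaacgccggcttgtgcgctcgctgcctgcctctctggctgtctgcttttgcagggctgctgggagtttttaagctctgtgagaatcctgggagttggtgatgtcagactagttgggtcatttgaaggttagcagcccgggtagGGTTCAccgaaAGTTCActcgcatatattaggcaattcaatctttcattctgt

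DHRS3: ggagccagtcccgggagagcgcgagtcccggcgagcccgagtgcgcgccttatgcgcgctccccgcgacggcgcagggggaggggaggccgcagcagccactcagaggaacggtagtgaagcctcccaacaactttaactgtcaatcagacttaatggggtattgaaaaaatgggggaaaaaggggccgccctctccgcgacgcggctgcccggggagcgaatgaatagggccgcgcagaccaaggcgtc

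Checks on the arrays as a whole were as follows. The 4 array medians lay between 6.18 and 6.22. All 5 mesenchymal markers of the line were at a level of 6 or more in every array. Among epithelial markers EPCAM and CDH1 were below it in all arrays, and KRT8 and KRT18 were above it in all. KRT19 reached it in the ALDH-negative DOX array alone, at 6.46. ESR1 and PGR were below it in all arrays, whereas ERBB2 was above it in all. Of the 4 immune markers with a probe set 1 reached that level, MS4A1 in the ALDH-positive DOX array alone, and PTPRC, CD3E and LYZ were below it everywhere. Summed over 3 endothelial markers the log2 level was 6.90 and 7.93 in the ALDH-positive arrays against 9.87 and 9.72 in the ALDH-negative ones, of which PECAM1 alone reached 6, CDH5 and VWF staying under it. Over 4 fibroblast and pericyte markers it was 11.42 and 10.88 against 11.90 and 11.83, carried by DCN, whereas LUM stayed under 6. RGS5 and PDGFRB had mean ALDH differences of the other sign, 0.81 and 0.49, against -0.96 for DCN. HBB, the 1 of 3 erythroid markers with a probe set, was at 6.98 and 6.44 against 5.77 and 5.62. The 3' minus 5' difference of the ACTB control probe sets, a sign of RNA quality or labelling, was 3.11 and 3.50 in ALDH-positive and 3.70 and 3.87 in ALDH-negative arrays, and that of GAPDH was 0.56 and 0.33 against 0.87 and 0.98. These values move with the ALDH fraction, and their part in the ALDH differences of the retinoid genes was not tested. The ALDH-positive DOX array stood apart on some control probe sets. AFFX-HUMRGE/M10098_5_at was at 10.42 in it, against 12.36, 12.02 and 12.23 in ALDH-positive control, ALDH-negative control and ALDH-negative DOX arrays. AFFX-HUMISGF3A/M97935_MA_at was at 6.89 against 8.095, 7.89 and 7.91, whereas AFFX-HUMISGF3A/M97935_3_at was at 11.36 against 11.31, 11.34 and 11.33. The part of this in the DOX differences of ALDH-positive cells was not tested.

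The ALDH-positive fraction held more DHRS3 transcript than the ALDH-negative fraction. DHRS3, the retinal reductase, was at a log2 level of 9.93 without and 10.17 with DOX in ALDH-positive cells, and at 8.93 without and 8.95 with DOX in ALDH-negative cells. Both ALDH-positive arrays lay above both ALDH-negative ones. The difference between fractions was 0.99 in the control arrays, just short of 2-fold, and 1.22 in the DOX arrays. In a limma model with additive terms for ALDH and DOX, fitted to all genes that reach a level of 6 in any array, DHRS3 rose by 1.11 ± 0.25 (SE, limma adjusted p = 0.00741). It was measured by 1 probe set, and its limma adjusted p was between 0.00215 and 0.0540 over the alternatives, the highest without a filter on level. DHRS3 lies on chromosome 1 (GRCh38.p14, chr1:12567910-12618210).

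The model took each treatment as the repeat of the other and left 1 residual degree of freedom. DHRS3 was the 1 member of 7 to pass a Benjamini-Hochberg adjusted p of 0.05, beside 23.1% of all 12365 genes tested. At an unadjusted p of 0.05, 5 of 7 members passed, beside 35.7% of all genes. By size, a 2-fold difference where either array compared reaches a level of 6, 0 of 7 members were called between the fractions in the control arrays, where 10.5% of all genes were. In the DOX arrays 1 of 7, again DHRS3, was called, against 16.7% of all genes (1396 higher and 650 lower, or 1133 and 842 with each array centred on the median of genes at a level of 6). Of the 7 members, 6 had both arrays of one fraction above both of the other, 2 with ALDH-positive higher and 4 with ALDH-positive lower, and 65.9% of all genes did the same. The median ALDH difference over the 7 members was -0.42 against 0.03 over all genes tested. RARB and CYP26B1, both lower in the ALDH-positive arrays, reached a level of 6 in the ALDH-negative arrays alone. Their entry and their direction are thus tied, and these counts and this median include them.

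The dots for each gene in the plot of all probe sets show how close several members lie to background.

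**Figure D1:**
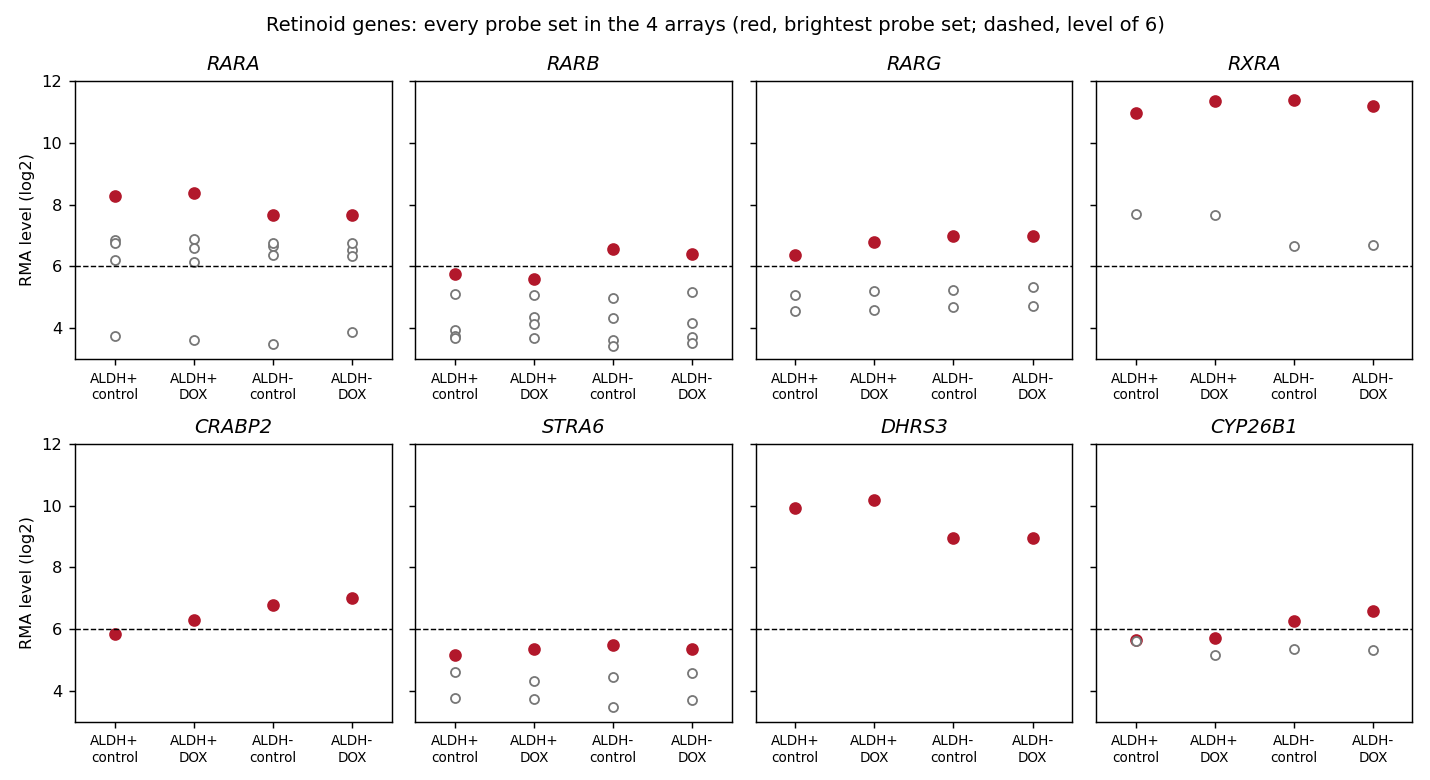
RMA level on the log2 scale (vertical axis) of all 22 probe sets of 8 retinoid genes in each of the 4 arrays (horizontal axis). Filled red points are the brightest probe set of a gene, open points its other probe sets, and the dashed line is the level of 6. DHRS3 is higher in both ALDH-positive arrays, CRABP2 and RARB are lower there, and all STRA6 points lie under the line.

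Among the receptors, RARA and RXRA gave different answers on different probe sets. RARA, the retinoic acid receptor alpha, was at 8.29 without and 8.38 with DOX in ALDH-positive cells, and at 7.67 without and 7.66 with DOX in ALDH-negative cells on its brightest probe set, 203749_s_at. The ALDH-positive arrays were the higher pair, by 0.61 and 0.72, and the mean difference of 0.67 ± 0.27 (SE) did not pass (limma adjusted p = 0.0970). The other 3 RARA probe sets at that level differed by 0.21 and 0.36 (216300_x_at), by 0.00 and -0.18 (203750_s_at) and by -0.17 and -0.20 (211605_s_at). The fifth, 1565358_at, lay between 3.49 and 3.87. The mean over all RARA probe sets differed by 0.14 between the fractions (limma adjusted p = 0.681). RARA lies on chromosome 17 (GRCh38.p14, chr17:40309180-40357643).

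RXRA, the partner that RARs share with other nuclear receptors, had 2 probe sets, both of the kind that can hybridise to several transcripts, called shared from here on. The brighter, 202449_s_at, was at 10.98 without and 11.34 with DOX in ALDH-positive cells, and at 11.40 without and 11.20 with DOX in ALDH-negative cells. The fractions overlapped on it, with differences of -0.42 in control and 0.14 in DOX arrays. The dimmer, 202426_s_at, was at 7.70, 7.68, 6.67 and 6.69 in the same order, with both ALDH-positive arrays above both ALDH-negative ones. Its differences were 1.03 and 0.99, and in a fit over all single-gene probe sets its mean of 1.01 ± 0.27 (SE) passed narrowly (limma adjusted p = 0.0462). In that fit 2 of the 11 member probe sets at a level of 6 passed, the other being that of DHRS3, beside 13.3% of 24846 probe sets. The direction for RXRA thus depends on the probe set, and neither value stands for the gene. The 4 RARA probe sets at a level of 6 are shared as well. RXRA lies on chromosome 9 (chr9:134326455-134440585).

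RARB and RARG were at low levels, with lower means in the ALDH-positive arrays that did not pass the test. RARB, the receptor whose own gene responds to retinoic acid, reached a level of 6 on 1 of its 5 probe sets, 208530_s_at, which is shared. It was at 5.74 without and 5.58 with DOX in ALDH-positive cells, and at 6.55 without and 6.39 with DOX in ALDH-negative cells. Both ALDH-positive arrays lay under the level of 6 and both ALDH-negative arrays over it. The differences were -0.81 in each treatment, and the mean of -0.81 ± 0.28 (SE) did not pass (limma adjusted p = 0.0551). Over the alternatives its limma adjusted p was between 0.0492 and 0.07675, the lowest with each array centred on its median. With values under 6 set to 6 the mean was -0.47. The other 4 RARB probe sets lay between 3.44 and 5.17. Which RARB start the probe sets read was not tested.

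RARG, the retinoic acid receptor gamma, was at 6.36 without and 6.79 with DOX in ALDH-positive cells, and at 6.99 without and 6.997 with DOX in ALDH-negative cells on 204189_at. The ALDH-positive control array was the lowest, and the other arrays lay within 0.21 of each other. The mean ALDH difference was -0.42 ± 0.29 (SE, limma adjusted p = 0.319). Its other 2 probe sets were under 6 in all arrays. RARB lies on chromosome 3 (chr3:24829321-25597932) and RARG on chromosome 12 (chr12:53210569-53232209).

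The retinoic acid binding and breakdown genes were near background, with lower values in the ALDH-positive arrays that did not pass the test. CRABP2, which carries retinoic acid to the nucleus, was at 5.83 without and 6.31 with DOX in ALDH-positive cells, and at 6.77 without and 7.01 with DOX in ALDH-negative cells. The ALDH-positive arrays were the lower pair, by -0.94 and -0.71. The mean of -0.82 ± 0.28 (SE) narrowly missed the threshold (limma adjusted p = 0.0519), and its limma adjusted p was between 0.0202 and 0.108 over the alternatives. CRABP2 has 1 probe set and lies on chromosome 1 (chr1:156699606-156705784).

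CYP26B1, an enzyme that breaks down retinoic acid, was at 5.65 without and 5.71 with DOX in ALDH-positive cells, and at 6.25 without and 6.57 with DOX in ALDH-negative cells on 219825_at. Again both ALDH-positive arrays were below 6 and both ALDH-negative arrays above it. The differences were -0.60 and -0.86, with a mean of -0.73 ± 0.28 (SE, limma adjusted p = 0.0820). With values under 6 set to 6 the mean was -0.41. Its second probe set lay between 5.16 and 5.62. STRA6, the retinol uptake receptor, was at 5.17, 5.34, 5.48 and 5.35 on its brightest probe set and below that on the others, so that no direction is given for it. CYP26B1 lies on chromosome 2 (chr2:72129238-72147862) and STRA6 on chromosome 15 (chr15:74179466-74212259).

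**Figure D2:**
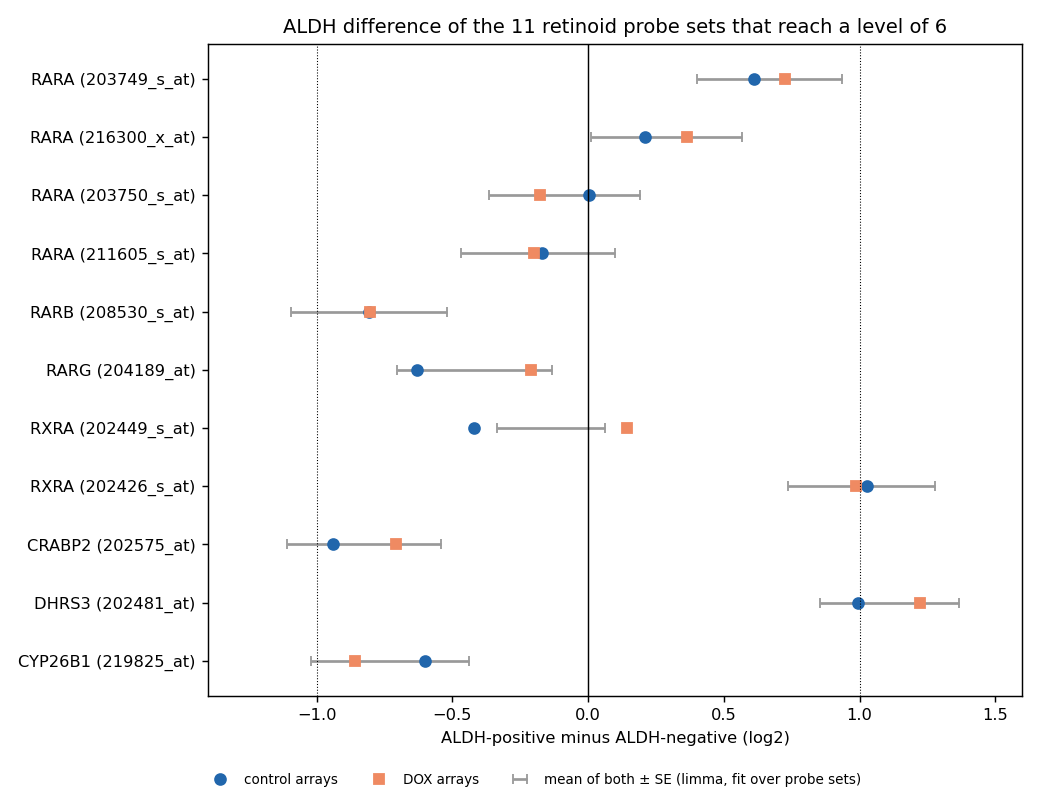
Difference between ALDH-positive and ALDH-negative arrays on the log2 scale (horizontal axis) for the 11 retinoid probe sets that reach a level of 6 (vertical axis), in the control arrays (circles) and the DOX arrays (squares). Bars are the limma mean of both ± SE from the fit over probe sets, and dotted lines mark 2-fold. The 2 RXRA probe sets lie apart, DHRS3 is at 0.99 and 1.22, and the dimmer RXRA probe set is at 1.03 and 0.99.

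No member differed by 2-fold between DOX and control arrays in either fraction. In the ALDH-positive pair 5 members could be compared, 0 were called, and 5.78% of all genes were (422 higher and 280 lower, or 265 and 387 with that centring). In the ALDH-negative pair it was 0 of 7, against 0.322% of all genes. CRABP2 differed by 0.47 between DOX and control in ALDH-positive and by 0.24 in ALDH-negative cells. For RARG the values were 0.43 and 0.01, for DHRS3 0.24 and 0.01, and for RARA 0.09 and -0.02. RXRA was higher with DOX by 0.36 in ALDH-positive and lower, at -0.20, in ALDH-negative cells on 202449_s_at, and differed by -0.02 and 0.02 on 202426_s_at. RARB was at -0.16 in both pairs, and CYP26B1 at 0.06 and 0.32, where the ALDH-positive values of both genes are differences between levels under 6.

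The ALDH-positive pair as a whole leaned upward, with a median of 0.12 over all genes compared, and the 5 members compared had a median of 0.36. The 5 leave out RARB and CYP26B1, at -0.16 and 0.06, which were under a level of 6 in both arrays of that pair. The median was 0.01 for the 7 members in the ALDH-negative pair and -0.00 for all genes. In the additive limma model no member passed for DOX at an adjusted p of 0.05, and 1 of all 12365 genes did, a share of 0.00809%. A DOX response that is unequal in the fractions counts as error in this model, so this share does not measure such responses. At an unadjusted p of 0.05, 0 of 7 members and 652 of all genes (5.27%) passed. The lowest limma adjusted p of a member was 0.919, for CRABP2, with a mean DOX difference of 0.36 ± 0.28 (SE). The difference between the responses of the fractions was under 2-fold for all 7 members. The furthest were RXRA at 0.56, on 202449_s_at, and RARG at 0.42. On 202426_s_at RXRA was at -0.04. Of all genes, 6.19% passed that size (468 higher and 297 lower, or 297 and 439 with that centring). With 4 arrays the difference between the responses has no test.

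**Figure D3:**
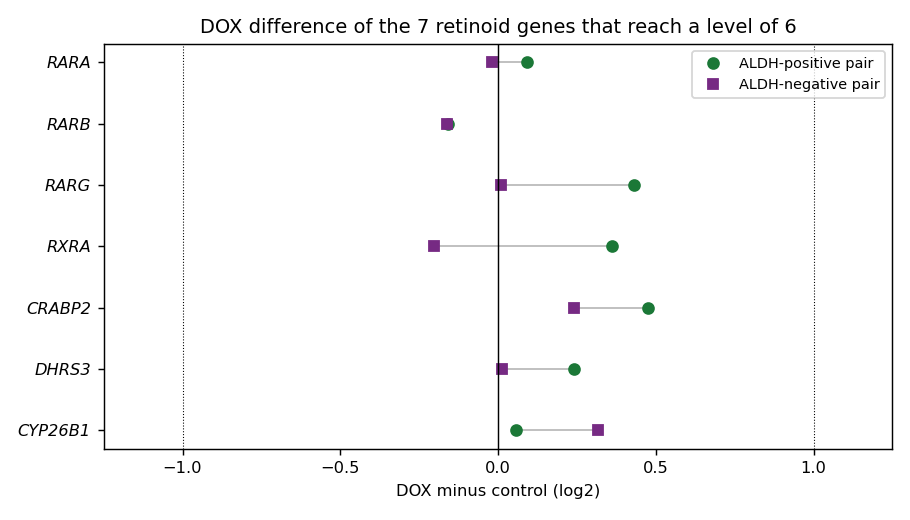
Difference between DOX and control on the log2 scale (horizontal axis) for the 7 retinoid genes that reach a level of 6 (vertical axis), in the ALDH-positive pair (circles) and the ALDH-negative pair (squares). Dotted lines mark 2-fold. All points lie inside them, from -0.20 for RXRA to 0.47 for CRABP2.

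Of 32 listed genes of retinoid supply and oxidation 28 had a probe set and 15 reached a level of 6. In the additive limma model for ALDH 1 rose (TTR), 3 fell (DHRS9, FABP5 and RDH10) and 11 did not pass, a share near the 23.1% of all genes that passed. The median ALDH difference of the list was 0.08 against 0.03 over all genes. DHRS9, a dehydrogenase that acts on retinol, was at 7.46 and 7.21 in ALDH-positive control and DOX arrays and at 8.84 and 8.95 in the ALDH-negative ones. It fell by 1.56 on the log2 scale (SE 0.28, limma adjusted p = 0.00187), and its other 2 probe sets at a level of 6 went the same way in both treatments. FABP5, a fatty acid carrier that also delivers retinoic acid to another nuclear receptor, PPARD, was at 11.59 and 10.91 against 12.55 and 12.50 and fell by 1.28 (SE 0.16). RDH10, the enzyme that oxidises retinol to retinal, was at 9.29 and 9.26 against 10.17 and 10.24, a mean of -0.93 ± 0.24 (SE, limma adjusted p = 0.0155, or 0.0703 without a filter on level). DHRS3, which runs the opposite reaction to RDH10, was on the other side.

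TTR, which carries retinol with RBP4 in blood, was the gene that rose, at 6.76 and 6.12 against 5.20 and 4.89. With values under 6 set to 6 its mean of 1.39 became 0.44 and no longer passed (limma adjusted p = 0.140). CYP26A1, ALDH1A2 and LRAT were under a level of 6 in all arrays. ALDH1A1, which is among the enzymes linked to the sort, was higher in ALDH-positive cells by 1.05 in control and lower, at -0.20, in DOX arrays. ALDH1A3 was at 0.63 and -1.15. DHRS9 and FABP5 have only shared probe sets, so that with these left out they were not measured, and RDH10 was still called.

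Among 26 listed receptor partners and cofactors 20 had a probe set and 18 were measured, of which 1 rose and 3 fell, again a share near the 23.1% of all genes. NR4A2, an orphan receptor that pairs with RXR, was at 7.24 and 7.56 in ALDH-positive and at 10.01 and 9.80 in ALDH-negative arrays. Its mean of -2.51 ± 0.27 (SE) was the furthest of the list, and all 3 of its probe sets at a level of 6, each of them shared, lay on that side. With shared probe sets left out NR4A2 and VDR were not measured. THRB, a thyroid hormone receptor, had a mean of -0.94 and VDR, the vitamin D receptor, which was named after its value was seen, of -0.57, and NR1H3, an oxysterol receptor, of 0.80. NR1H3 did not pass under 8 of 11 alternatives, THRB under 5 of 11 and VDR under 2 of 10.

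Genes known to respond to retinoic acid were measured at 8 of 23 listed, 19 having a probe set. In the additive limma model 4 of the 8 rose and 0 fell, where 13.5% of all genes rose and 9.58% fell. At an unadjusted p of 0.05, 5 were higher and 0 lower, beside 35.7% of all genes in either direction. Of the 8, 6 had a mean above 0 and 2 a mean below it, of which MEIS1 was the further at -0.49. The median ALDH difference of the 8 was 0.79 against 0.03 over all genes. The 7 members measured are outside the list, 2 with a mean above 0 and 5 with a mean below it. Among them RARB and DHRS3, also known to respond to retinoic acid, had means of -0.81 and 1.11. CRABP2 and CYP26B1 had means of -0.82 and -0.73. The list was chosen with earlier results of these data known, so these shares describe it and do not test it. PLAAT4, also known as a retinoic acid receptor responder, was at 8.11 and 8.61 in ALDH-positive and at 5.74 and 6.09 in ALDH-negative arrays, a rise of 2.44 ± 0.28 (SE). The adhesion molecule ICAM1 rose by 1.20 ± 0.24 (SE), the laminin chain LAMB1 by 0.98 ± 0.13 (SE) and TNFAIP2 by 0.71 ± 0.15 (SE). These genes are known to respond to other signals too, PLAAT4 to interferon and ICAM1 and TNFAIP2 to NF-kB. With shared probe sets left out 4 genes were measured and 2 of them, PLAAT4 and LAMB1, rose, while ICAM1 and TNFAIP2 were not measured. TNFAIP2, named after its value was seen, did not pass as the mean of its probe sets (0.34, limma adjusted p = 0.260). TGM2, a transglutaminase, was at 7.85 without and 9.20 with DOX in ALDH-positive cells, and at 7.41 without and 7.88 with DOX in ALDH-negative cells, the one gene of the list to differ by 2-fold with DOX, by 1.35 in ALDH-positive cells. CYP26A1, RARRES1 and RARRES2 were under a level of 6 throughout.

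**Figure D4:**
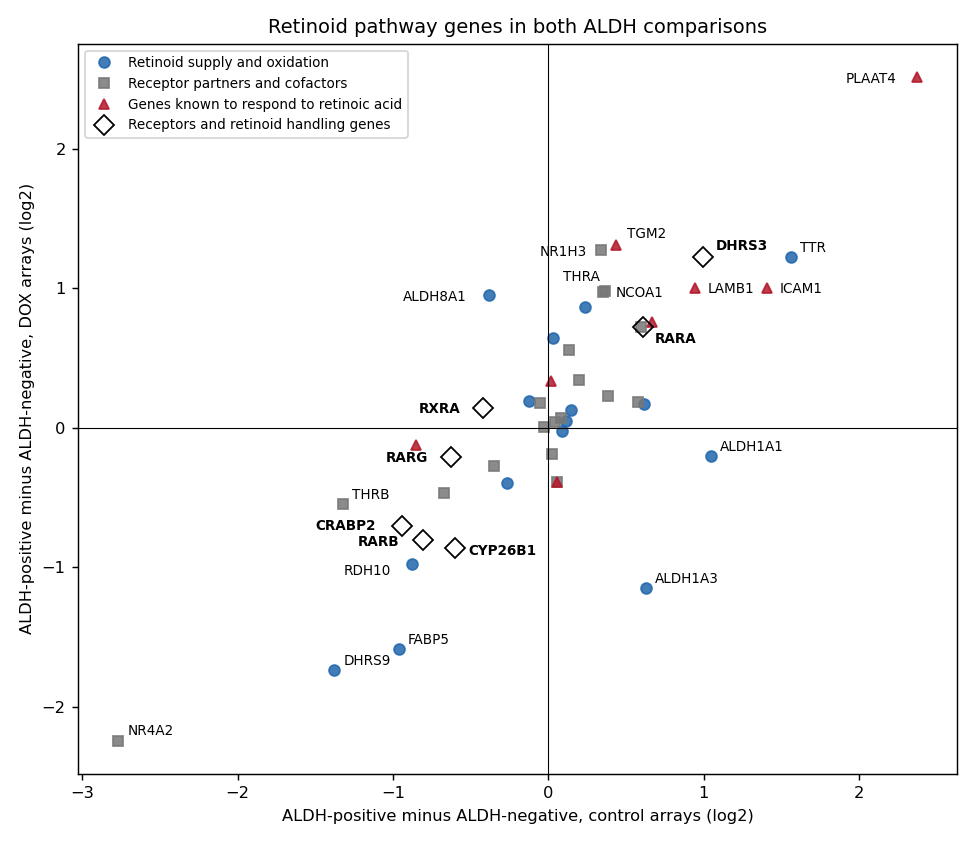
ALDH-positive minus ALDH-negative difference on the log2 scale in the control arrays (horizontal axis) and in the DOX arrays (vertical axis), for genes at a level of 6 in 3 retinoid lists (filled symbols) and for the 7 receptor and handling genes (open diamonds). PLAAT4 lies at the upper right and NR4A2 at the lower left, and ALDH1A1 and ALDH1A3 lie right of 0 and below it.

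The genes of nearest pattern over the 4 arrays were sought for the 2 members that spanned 1 or more on the log2 scale. Likeness was the Euclidean distance between log2 values centred on each gene's mean, among 12364 other genes at a level of 6. For DHRS3 these were DDX43 (distance 0.01), GTF2IRD1 (0.04) and C12orf56 (0.05). For CRABP2 they were DOHH (0.05), ITGA2 (0.05) and PNPLA3 (0.08). A pattern over 4 arrays is met by many genes, and nothing further is read from it.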

How the data were processed

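Affymetrix expression arrays were hybridised with RNA of 4 sorted and treated SUM159 samples, 1 array per group. The authors deposited log2 values, summarised per probe set with RMA per the submitters' processing notes, which give no version. They were used without further scaling. Of 54675 probe sets, 62 were controls, and an annotation of 2016 gave 41097 probe sets 1 gene, 1801 several and 11777 none. The last number includes probe sets that the annotation does not list. A gene without a probe set here is one with none annotated to it alone, which does not show that the array lacks it. A gene was read at its brightest single-gene probe set over the 4 arrays. Pairs of arrays were compared by size (2-fold, with a level of 6 in at least 1), with no p-value. The additive model used limma 3.58.1 (eBayes with trend, prior degrees of freedom 11.6) in R 4.3.3, two-sided, with Benjamini-Hochberg adjustment over all 12365 genes. The number of arrays limits the precision. Named genes were the members, up to 4 per list with the largest mean ALDH or DOX difference and list genes called in any pair, with 3 genes of nearest pattern for members spanning 1 or more. Alternatives changed the scaling, level filter, probe set rule, fold size and model. The members and lists were chosen with earlier results of these data known. The steps were tested on simulated data.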

Additional observations from a re-analysis of the deposited data

Results flagged for a closer look

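Some genes differed in opposite directions in the fractions or treatments, with 1 array on each side, so that none of these differences between responses was tested. RXRA differed with DOX by 0.36 in ALDH-positive and by -0.20 in ALDH-negative cells, which is the same as an ALDH difference of -0.42 in control and 0.14 in DOX arrays. Its second probe set gave ALDH differences of 1.03 and 0.99. RARA differed with DOX by 0.0925 in ALDH-positive and by -0.0193 in ALDH-negative cells. ALDH1A1 differed with DOX by -1.11 in ALDH-positive and by 0.14 in ALDH-negative cells, and between the fractions by 1.05 in control and -0.20 in DOX arrays. ALDH1A3 was higher in ALDH-positive control cells by 0.63 and lower in ALDH-positive DOX cells, at -1.15, and differed with DOX by 0.16 in ALDH-positive and by 1.94 in ALDH-negative cells. ALDH8A1, an enzyme that oxidises 9-cis-retinal, had ALDH differences of -0.38 in control and 0.95 in DOX arrays, and differed with DOX by 1.54 in ALDH-positive and by 0.21 in ALDH-negative cells.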

How the results depend on the processing

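Of 69 counts of members under alternatives, 59 were within 1.5 times the reported count. These include counts of 0 that stayed at 0, and the 10 that moved were all in comparisons between the fractions. At 1.5-fold, 6 members were called between the fractions in the control arrays and 5 in the DOX arrays, instead of 0 and 1, where 26.1% and 35.5% of all genes were called. In the control arrays cyclic loess, and centring on the median of genes at a level of 6 (chosen after seeing the data), gave 1, DHRS3, at 1.02 under each. In the additive model for ALDH, 3 members passed with each array centred on its median, 2 with values under 6 set to 6, 2 with probe sets averaged per gene, 2 with robust estimation, 2 in the fit over probe sets and 0 with no filter on level, instead of 1. The mean of probe sets turned the ALDH difference of RXRA to 0.43, and the DOX difference of RARA to -0.0045, or -0.023 when centred on genes at a level of 6. All-gene calls in the additive model for ALDH numbered 767 higher and 410 lower with no filter on level, 998 and 529 without trend and 1083 and 674 with the ALDH term only, against 1672 and 1184. No paired analysis was possible because the labels give no replicate numbers and each group holds 1 array. Leaving out an array leaves the additive model no residual degree of freedom, and the pair differences then stand in its place.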
